A study of Equus caballus with 3 samples.

Results

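Pleiotrophin (*PTN*) was followed across equine mesenchymal stromal cells (MSCs) from 3 tissues. It is 1 of the 2 genes that the rule named, the other being midkine (*MDK*), and 1 of the 29927 genes of the count tables. *MDK* was not analysed here, so that neither its level nor its overlap with *PTN* in single cells is given. *PTN* was chosen by its level, which differed between the tissues in earlier results of these same 3 libraries. Its levels are therefore a description, and no test was run on them.

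The cells came from 1 healthy warmblood mare aged 10 years, and their sources were its fat (adipose tissue, AT), marrow of bone (BM) and circulating, peripheral blood (PB). They carried no treatment or genetic change, had been grown for 2 passages, and were captured in droplets for single-cell RNA sequencing (scRNA-seq), in which a barcode marks the cell and a unique molecular identifier (UMI) marks each captured transcript. Each tissue gave 1 library, so that sources, cultures and libraries of this single animal cannot be told apart. The sample titles give the source, whereas the deposited source name calls all 3 samples mononuclear cells of blood.

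Pleiotrophin and midkine form a small family of secreted growth factors that bind heparin. They act at the cell surface through proteoglycans, among them the syndecans, whose heparan sulfate chains hold the ligand, and the receptor phosphatase *PTPRZ1*, which binds it through chondroitin sulfate. In bone marrow, pleiotrophin from stromal and endothelial cells is known to act on haematopoietic stem cells, and it has long been studied as a factor of bone and cartilage matrix.

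A barcode counted as a cell when it held 2500 to 15000 UMIs with at most 3% of them mitochondrial. This left 5403 AT-, 5580 BM- and 5318 PB-derived MSCs with 39980656, 40239295 and 41622445 UMIs, and a median of 7291, 6874.5 and 7750 UMIs per cell. Levels are UMIs summed over cells and scaled to the total of the source, in counts per 1e6 UMIs (CPM). Ranges in parentheses are exact 95% intervals (Poisson for sums, Clopper-Pearson for shares, conditional binomial for ratios) that cover counting error only and not the spread between cultures or animals. For a count of 0 UMIs over a source a floor of 3 UMIs was taken in place of an exact interval, which reaches somewhat higher. This floor is 0.0750 CPM in AT, 0.0746 CPM in BM and 0.0721 CPM in PB. The stromal label was checked first. All 8 stromal markers were measured at 5 CPM or more on average over the sources, with summed levels of 28203, 25665 and 37720 CPM in AT, BM and PB, and the leukocyte genes *PTPRC* and *LCP1* had 0 UMIs in every source. Barcodes occur in more than 1 library: 37 were kept cells of both AT and PB, 42 of both AT and BM and 38 of both BM and PB, and all 5318 kept PB barcodes are also listed in the AT table. Leaving out the barcodes kept in more than 1 library left *PTN* at 22.8, 200.6 and 208.8 CPM in AT, BM and PB. This removed only 76, 77 and 72 cells. It does not bear on the AT barcodes under 2500 UMIs that are shared with PB, which are not kept cells.

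*PTN* lies on the minus strand of chromosome 4 of EquCab3.0. The kept cells of AT held 911 *PTN* UMIs, those of BM 8049 and those of PB 8687. The level was 22.8 CPM (21.3 to 24.3) in AT, 200.03 CPM (195.7 to 204.4) in BM and 208.7 CPM (204.3 to 213.1) in PB. AT thus stood far below the other sources, which were close to each other. BM was 8.78 times AT (8.20 to 9.41) and PB was 9.16 times AT (8.55 to 9.82), or 3.08 and 3.14 as differences of log2(CPM + 1). Over the 8426 genes with a mean of at least 5 CPM, 7.9% were at least 2-fold higher in BM than in AT and 5.39% were at least 2-fold higher in PB than in AT. Among these genes 70 had a larger difference than *PTN* between BM and AT, and 54 between PB and AT, where the median gene differed by 0.24 and 0.032.

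Between BM and PB the ratio of *PTN* was 0.958 (0.930 to 0.988), a log2 difference of −0.061, while the median gene was 0.20 higher in BM. The order of these sources depended on how the sum was made. BM was the higher by 0.053 with means of single-cell CPM, by 0.12 in cells called G1, by 0.13 with each cell thinned to 2500 UMIs and by 0.16 without 1 BM cluster described further on, whereas scaling factors from the trimmed mean of M values (TMM) placed it 0.29 below PB. BM- and PB-derived MSCs are therefore given no order here.

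A *PTN* UMI was found in 12.8% of AT-derived MSCs (11.9 to 13.7), 59.2% of BM-derived MSCs (57.9 to 60.5) and 65.0% of PB-derived MSCs (63.7 to 66.3). After every cell was thinned to 2500 UMIs the shares were 5.42% (4.83 to 6.06), 36.1% (34.9 to 37.4) and 35.6% (34.3 to 36.9). The order of BM and PB seen with all UMIs was thus lost at equal depth, where their intervals overlapped, and AT was the lowest at both depths. No cell type known to lack *PTN* was found among these cells, and what free RNA by itself would give was therefore not measured.

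**Figure D1:**
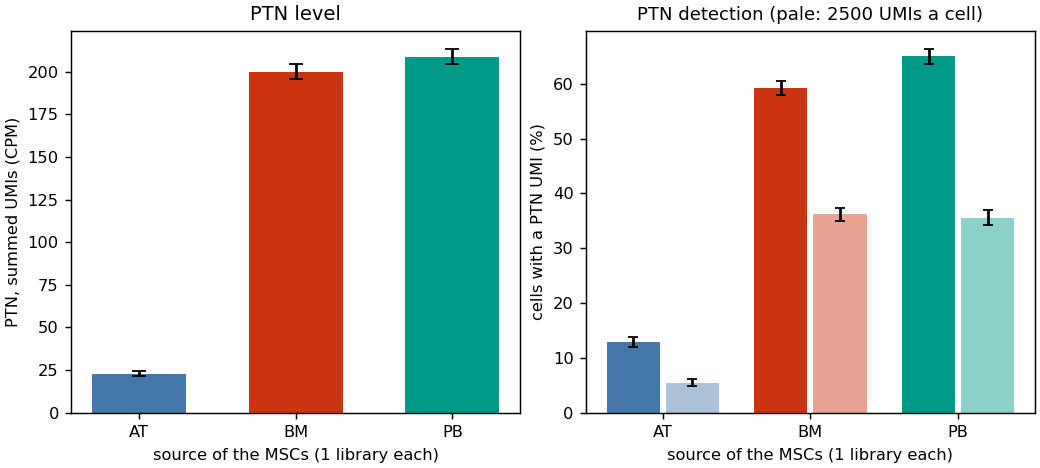
*PTN* by source. Left, summed UMIs in CPM with exact 95% Poisson intervals; right, percent of kept cells with a *PTN* UMI, with all UMIs (dark bars) and at 2500 UMIs per cell (pale bars), with exact 95% Clopper-Pearson intervals. Each source is 1 library. AT sits at 22.8 CPM while BM and PB sit at 200.03 and 208.7 CPM, and the pale bars of BM and PB have nearly the same height.

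The spread over single cells was read at 2500 UMIs per cell. The mean was 0.0587 *PTN* UMIs per AT-derived MSC, 0.570 per BM-derived MSC and 0.520 per PB-derived MSC, and the variance divided by the mean, which is 1 for a Poisson distribution, was 1.11, 1.59 and 1.41. In BM 63.9% of cells had no *PTN* UMI, against 56.6% for a Poisson distribution of the same mean. In PB the corresponding values were 64.4% and 59.4%, and in AT 94.6% and 94.3%. *PTN* was thus spread more unevenly over cells than a Poisson distribution gives, with more cells at 0 in each source. Both measures tend to their Poisson values as the mean falls, so the sources, with AT at a far lower mean, are not ranked by them. Cells with 3 or more *PTN* UMIs made up 4.55% in BM, 3.50% in PB and 0.0370% in AT. At 5 or more there were 36 BM cells, 15 PB cells and 0 AT cells. The highest count in a thinned cell was 11 in BM, 9 in PB and 3 in AT.

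**Figure D2:**
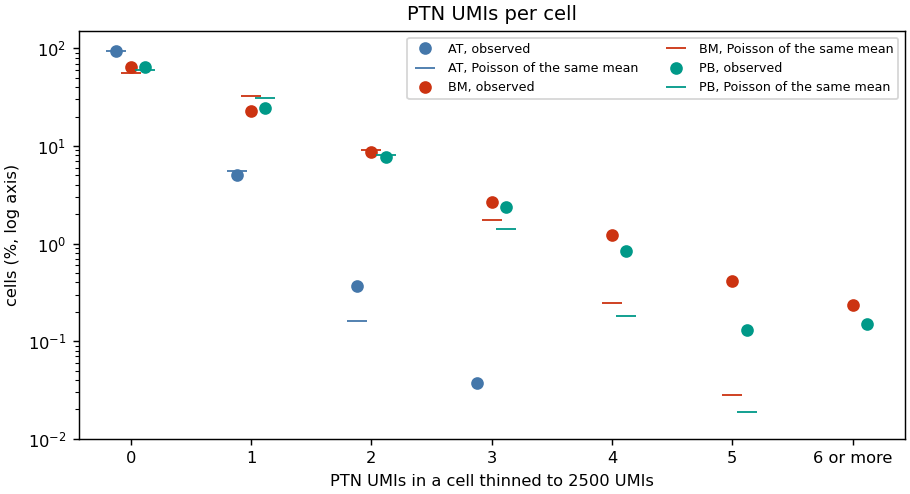
Percent of cells (log axis) by number of *PTN* UMIs in a cell thinned to 2500 UMIs. Points are the observed shares and dashes the shares of a Poisson distribution with the same mean, by source. In BM and PB the points lie below the dashes at 1 UMI and above them from 3 UMIs on.

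Within each source, cells were clustered without *PTN*, *MDK* and *JAM2* among the variable genes. In AT the 7 clusters lay between 14.8 and 34.6 CPM of *PTN*, and none reached the level of any PB cluster. In PB the 9 clusters lay between 89.8 CPM (81.0 to 99.4) and 340.9 CPM (321.9 to 360.8), a range of 3.79-fold. The lowest PB cluster, with 398 cells, was 94.97% cells called S or G2M, while the highest, with 407 cells, was 43.5%. The lowest was also the deepest PB cluster, with a median of 10820 UMIs. A PB cluster of 483 cells with 67.7% in S or G2M was at 203.8 CPM, so the order of the clusters by *PTN* did not follow this share. In BM the range was wider, at 30.7-fold, and came from a single cluster of 653 cells at 12.2 CPM (9.56 to 15.2). The other 7 BM clusters lay between 149.0 and 372.8 CPM.

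The BM cluster at 12.2 CPM was also the BM cluster with the least *JAM2*, at 33.7 CPM against 533 CPM in the remaining BM cells. *JAM2*, on the plus strand of chromosome 26, encodes a junctional adhesion molecule of the immunoglobulin superfamily. *PTN* was detected in 55 of its 653 cells (8.42%) with all their UMIs, against 65.9% of the remaining 4927 BM cells. The remaining cells were at 234.0 CPM (228.9 to 239.2), which is 19.3 times the cluster (15.3 to 24.5), and AT-derived MSCs were 1.87 times the cluster (1.48 to 2.40). The BM level of *PTN* was thus an average over this smaller set, below the AT level, and the other clusters, which all lay above the AT level. Without the cluster BM was 1.12 times PB (1.09 to 1.16). A cluster of the same range was found at resolutions of 0.4 and 0.8, and on a random part of the UMIs of each cell, where *PTN* in the other UMIs was at 10.6 CPM.

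The cluster stays unnamed, and several other measures moved with it. S or G2M was called in 90.0% of its cells, and its median depth was 9485 UMIs. A neighbour in these respects, a BM cluster of 618 cells with 90.9% in S or G2M and a median of 8520 UMIs, had 191.3 CPM of *PTN* and 398 CPM of *JAM2*. Summed levels of the 8 stromal markers were 12885 CPM in the low cluster and 27978 CPM in the remaining BM cells. Among these, *LUM*, a proteoglycan of the collagen matrix, was at 1196 against 4620 CPM, whereas *THY1*, a surface glycoprotein used to define MSCs, was at 501 against 537 CPM. The 7 measured osteoblast markers summed to 15.7 against 217.0 CPM, including *ALPL*, the phosphatase of mineralising cells, at 7.78 against 111.9 CPM. The Schwann or glial list went the other way, at 132.6 against 51.6 CPM. The haematopoietic list was at 9.24 against 11.9 CPM and the endothelial list at 0.811 against 0.176 CPM. The endothelial values rest on very few counts, as its highest member, *CLDN5*, had 7 UMIs over all kept BM cells. The smooth muscle or pericyte list was at 2116 against 3315 CPM, the chondrocyte list at 3.40 against 14.7 CPM and the adipocyte list at 1.13 against 12.9 CPM. The part of these differences in the level of *PTN* was not tested.

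**Figure D3:**
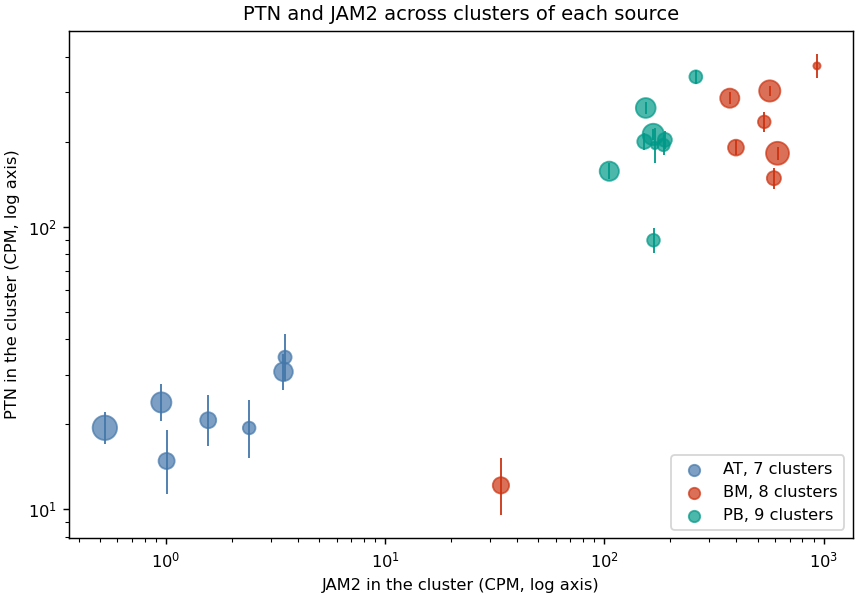
*PTN* against *JAM2* in each cluster of each source, both in CPM on log axes. Points are clusters, with areas that grow with the number of cells, and vertical lines are exact 95% Poisson intervals of *PTN*. The BM cluster at 12.2 CPM of *PTN* and 33.7 CPM of *JAM2* stands apart from the other 7 BM clusters, which lie at 149.0 CPM of *PTN* or more.

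The level of *PTN* also differed by cell cycle phase, as called from S and G2M genes. In BM it was 238.7 CPM in G1, 151.8 CPM in S and 113.0 CPM in G2M, so that G1 was 2.11 times G2M (1.96 to 2.28). In PB the same levels were 219.0, 203.1 and 178.3 CPM, with G1 at 1.23 times G2M (1.15 to 1.31). In AT they were 22.7, 18.8 and 29.7 CPM, with G1 at 0.763 times G2M (0.644 to 0.908). The direction in AT was thus opposite to that in BM and PB, and this difference was not tested. In BM most of the gap lay with the low cluster, without which G1, S and G2M were at 243.8, 218.3 and 193.1 CPM. Phases were called with the genes of the same cells and move with depth. In 3 groups of BM cells ordered by total UMIs *PTN* was at 302.5, 236.7 and 126.4 CPM from the shallowest to the deepest, and at 313, 249.6 and 170.1 CPM without the low cluster, which gave 487 of its cells to the deepest group. The corresponding values were 239.4, 234.6 and 175.2 CPM in PB and 25.8, 24.0 and 20.5 CPM in AT. In BM and PB *PTN* thus took a smaller share of the UMIs in the deepest cells. In AT the order was the same. The separate intervals of the shallowest (22.5 to 29.5) and deepest AT cells (18.5 to 22.7) overlapped slightly. This does not settle their ratio, of which no interval was computed.

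Over the kept cells *JAM2* was at 456 CPM in BM, against 166 CPM in PB and 1.60 CPM in AT, and the next comparison asked whether BM cells with *JAM2* UMIs carry more *PTN*. Both genes were read at 2500 UMIs per cell, where *JAM2* was detected in 57.5% of the BM cells, 32.1% of the PB cells and 0.407% of the AT cells. The 3208 BM cells with a *JAM2* UMI had 261.1 CPM of *PTN*, and the 2372 without had 182.8 CPM, a ratio of 1.43 (1.33 to 1.54). A *PTN* UMI was found in 40.9% (39.2 to 42.6) and 29.7% (27.9 to 31.6) of them. Among the 8665 genes compared in the same way, 190 had a larger log2 difference than the 0.51 of *PTN*. With all UMIs the ratio was 2.48 (2.31 to 2.67).

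The low cluster held 617 of the 2372 BM cells without *JAM2* at 2500 UMIs (26.0%), and 555 of the 1196 without *JAM2* with all UMIs (46.4%). Without the cluster, again at 2500 UMIs, *PTN* was at 263.6 CPM in cells with *JAM2* and 242.5 CPM in cells without, a ratio of 1.09 (1.01 to 1.17), and 2443 of 8587 genes had a larger difference. In cells called G1 the ratio was 1.12 (1.03 to 1.22), and in cells of 5000 to 10000 UMIs it was 1.30 (1.19 to 1.41). Within the 8 BM clusters the ratio was above 1 in 6, and the interval excluded 1 in only 1 of them, a cluster of 901 cells with a ratio of 1.23 (1.06 to 1.43). Most of the difference between BM cells with and without *JAM2* was thus a difference between the low cluster and the other cells.

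In PB the 1709 cells with a *JAM2* UMI had 225.4 CPM of *PTN* and the 3609 without had 200.1 CPM, a ratio of 1.13 (1.04 to 1.22). In this source 1718 of 8194 genes had a larger difference, and none of the 9 clusters had an interval that excluded 1, although the ratio was above 1 in 6. AT had only 22 cells with *JAM2*, which held 6 *PTN* UMIs, or 109.1 CPM against 23.1 CPM in the other 5381 cells, a ratio of 4.72 (1.72 to 10.4) that rests on those 6 UMIs. With all UMIs there were 57 such AT cells with 23 *PTN* UMIs, and the ratio was 2.40 (1.51 to 3.63). By number of *JAM2* UMIs, *PTN* in BM was at 182.8, 238.6, 268.6 and 292.7 CPM in cells with 0, 1, 2 and 3 to 4, and at 286.5 CPM with 5 or more. Without the low cluster the levels were 242.5, 242.9, 268.7, 293.5 and 287.7 CPM, so that cells with 0 and with 1 *JAM2* UMI were then level. In PB the levels were 200.1, 219.8, 238.4 and 282.8 CPM for 0, 1, 2 and 3 to 4 *JAM2* UMIs, with 58 cells in the highest of these groups. The PB intervals for 1, 2 and 3 to 4 began at 204.2, 204.9 and 202.9 CPM, and that for 0 was 190.9 to 209.5. Overlap of such separate intervals does not settle the ratio of 2 groups. The 364 PB cells with at least 2 *JAM2* UMIs were at 1.20 times the other PB cells (1.04 to 1.37).

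**Figure D4:**
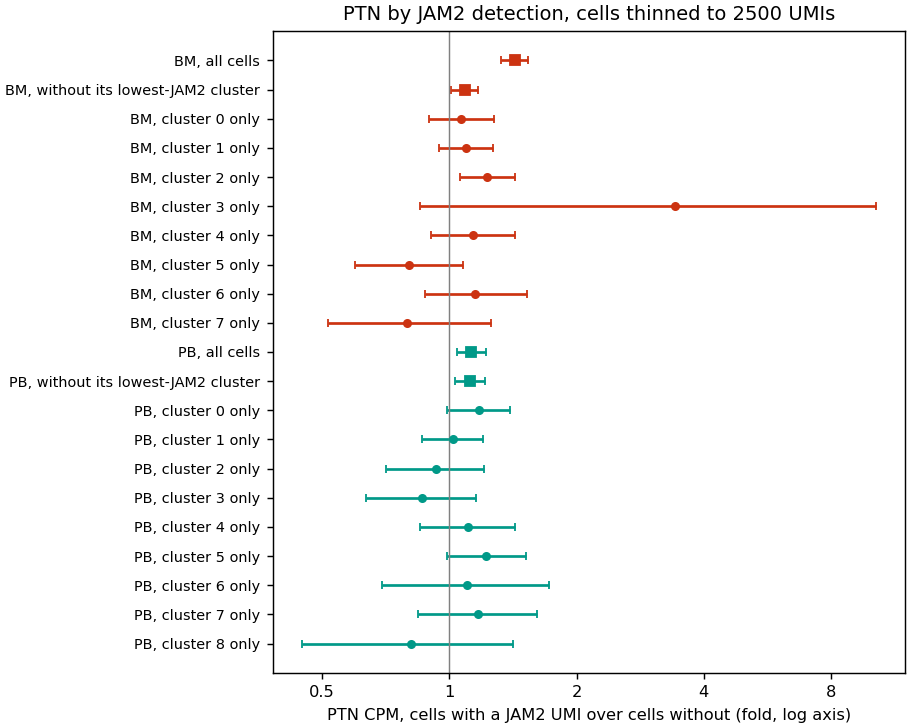
Ratio of *PTN* CPM in cells with a *JAM2* UMI to that in cells without (log axis), every cell thinned to 2500 UMIs, in BM and PB, for all cells, without the cluster of lowest *JAM2*, and within each cluster. Lines are exact 95% intervals of counting error and the grey line marks a ratio of 1. All BM cells lie at 1.43, and BM cells without the low cluster lie at 1.09.

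The genes whose counts were most like those of *PTN* across cells were taken by Pearson correlation of log1p counts at 2500 UMIs, among genes found in at least 25% of thinned cells. Cells of a source share 1 library and counts are sparse, so the values are small and only describe these libraries. Over the 5580 BM cells the highest were *LUM* at 0.29, the intermediate filament gene *VIM* at 0.22, the galectin gene *LGALS1* at 0.21, the collagen-binding proteoglycan gene *DCN* at 0.20 and the fibrillar collagen gene *COL3A1* at 0.19. Over the 5318 PB cells *LUM* at 0.17, *DCN* at 0.14 and *LGALS1* at 0.12 came first, followed by *B2M*, the light chain of MHC class I, and *CRABP2*, a retinoic acid binding protein, both at 0.11. Over the 5403 AT cells no gene passed 0.068, the value of *IGFBP6*, which was followed by *CD9*, *LGALS1*, *LGALS3* and ENSECAG00000037332. At the other end stood the histone gene *H2AFZ* (−0.17), *SERPINB6*, ENSECAG00000022273, *SPCS3* and *SEC11C* in BM, ENSECAG00000005731 (−0.097), *TNFRSF12A*, *RPLP0* and ENSECAG00000009190 in PB, and *THBS1* (−0.047), ENSECAG00000030502, *SEC11C*, *CTHRC1* and *PPIC* in AT. Without the low cluster *LUM* was at 0.22 in BM and *H2AFZ* at −0.069.

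Cells were then ordered by *LUM*, which was chosen after these values were seen. In BM *PTN* was at 114.4 CPM in cells with 0 to 7 *LUM* UMIs, 237.3 CPM with 8 to 13 and 358.3 CPM with 14 or more. Without the low cluster the first of these was 156.8 CPM and the last 358.5 CPM. In PB the levels were 147.5 CPM with 0 to 8 *LUM* UMIs, 213.4 CPM with 9 to 13 and 279.6 CPM with 14 or more. In AT, where *LUM* itself was at 1090 CPM against 4095 CPM in BM and 4535 CPM in PB, *PTN* was at 20.9, 25.8 and 23.9 CPM and its intervals overlapped.

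Of 25 receptors and binding partners listed for pleiotrophin and midkine, 23 were in the tables and 14 averaged at least 5 CPM over the sources. The receptor tyrosine kinases *ALK* and *LTK* and the receptor phosphatases *PTPRZ1* and *PTPRB* had 0 UMIs in every source. At least 2-fold higher in BM than in AT were 5 of the 14 (*SDC1*, *SDC2*, *SDC3*, *ITGA4* and *CSPG4*) and 0 were that much lower, where 7.9% and 2.03% of all genes passed. The same 5 passed in PB over AT and *VCAN* passed in the other direction, against 5.39% and 3.55% of all genes. Between BM and PB, *ITGA4*, *NRP1* and *VCAN* were higher in BM and *CSPG4* was higher in PB, against 5.44% and 1.84%. The list's median log2 difference was 0.64 for BM over AT, −0.0016 for PB over AT and 0.41 for BM over PB. TMM factors moved the log2 ratio of CPM by −0.28 for BM over AT and −0.23 for BM over PB, and by somewhat less on the log2(CPM + 1) scale for genes of low level. They placed 450 genes at least 2-fold higher and 292 at least 2-fold lower in BM than in AT in place of 666 and 171, and left 3 of the 14 partners past 2-fold (*SDC2*, *ITGA4* and *CSPG4*). The list's medians were then 0.37 for BM over AT and 0.19 for BM over PB, where those of all genes were −0.022 and −0.018.

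*SDC2*, a syndecan with heparan sulfate chains, was like *PTN* lowest in AT and near-equal in the other sources, with 30.4 CPM in AT, 156.9 CPM in BM and 157.7 CPM in PB. It was also at 13.6 CPM in the BM cluster of low *PTN*, against 182.9 CPM in the remaining BM cells. *SDC1* was at 15.8, 34.9 and 56.4 CPM in AT, BM and PB, and *SDC3* at 9.30, 20.7 and 24.7 CPM, while *SDC4* was at 14.1, 22.2 and 15.0 CPM. The 4 syndecans thus did not share 1 pattern. *ITGA4*, an integrin subunit, was at 1.68, 52.3 and 8.31 CPM, and its partner subunit *ITGB1* at 197.1, 313.1 and 203.9 CPM. The chondroitin sulfate proteoglycan *VCAN* was at 115.5, 120.2 and 31.2 CPM and *CSPG4*, also a pericyte marker, at 1.98, 7.38 and 21.6 CPM. The semaphorin and growth factor co-receptor *NRP1* was at 16.3, 30.2 and 9.44 CPM.

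The remaining partners differed less. The nucleolar and surface protein gene *NCL* was at 234.2, 262.5 and 214.7 CPM in AT, BM and PB, and the endocytic receptor *LRP1* at 185.3, 203.3 and 178.8 CPM. *NOTCH2* was at 52.2, 64.6 and 48.9 CPM, the Wnt co-receptor *LRP6* at 6.73, 7.63 and 5.36 CPM and the matrix proteoglycan *AGRN* at 6.403, 8.35 and 5.93 CPM. With TMM factors *NCL*, *LRP1*, *LRP6* and *VCAN* turned from higher to lower in BM than in AT, and *LRP1* from higher to lower in BM than in PB.

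**Figure D5:**
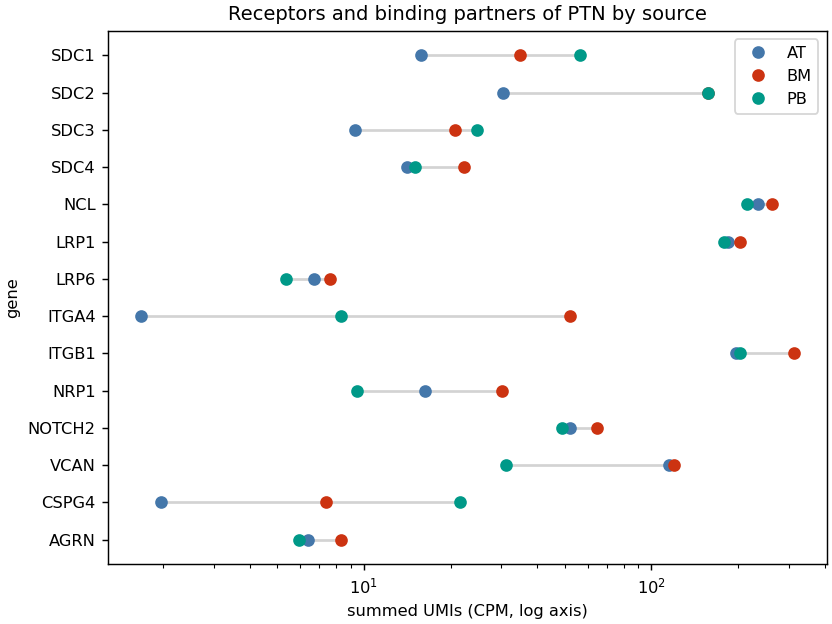
Summed UMIs (CPM, log axis) of the 14 receptors and binding partners with a mean of at least 5 CPM, by source, with 1 library per point. *SDC2* lies at 30.4 CPM in AT and near 157 CPM in BM and PB, where its points overlap, while *ITGA4* is highest in BM and *CSPG4* highest in PB.

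The same 14 partners were compared between cells with and without a *PTN* UMI at 2500 UMIs per cell. In BM *VCAN* was 1.46 times higher in the 2017 cells with *PTN* (1.33 to 1.60) and *NCL* was at 0.871 times (0.811 to 0.935), while the intervals of the other 12 included 1. Without the low cluster *VCAN* was at 1.27 times (1.15 to 1.39), *SDC2* at 0.834 times (0.766 to 0.907) and *NCL* at 1.06 times (0.984 to 1.15). In PB *SDC2* was 1.25 times higher in the 1893 cells with *PTN* (1.14 to 1.36), and *SDC4* and *NRP1* were at 0.677 times (0.487 to 0.929) and 0.671 times (0.445 to 0.994). Without the PB cluster of lowest *JAM2* these were 1.23 (1.12 to 1.35) for *SDC2*, 0.722 (0.506 to 1.02) for *SDC4*, whose interval then included 1, and 0.605 (0.382 to 0.934) for *NRP1*. Over all genes compared in the same way, 90% of the log2 differences lay between −0.50 and 0.35 in BM, −0.34 and 0.33 in BM without the low cluster and −0.36 and 0.33 in PB. The log2 differences of *VCAN* in BM (0.54, and 0.34 without the low cluster) and of *SDC4* and *NRP1* in PB (−0.53 and −0.52) lay outside these ranges, the second value of *VCAN* only just, whereas those of *NCL* in BM (−0.20) and of *SDC2* in PB (0.32) and in BM without the low cluster (−0.26) lay inside them.

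Heparan and chondroitin sulfate synthesis, which makes the chains that bind pleiotrophin, had 16 of 32 listed genes at 5 CPM or more. At least 2-fold higher in BM than in AT were 3 of the 16 (*SULF1*, *SULF2* and *CHSY1*), against 7.9% of all genes. The 2 that were higher in PB than in AT were *SULF1* and *SULF2*, against 5.39%. The 2 that were higher in BM than in PB were *SULF1* and *HS6ST1*, against 5.44%. There were 0 in the opposite directions, and the medians were 0.64, 0.12 and 0.41. *SULF1*, an extracellular enzyme that removes sulfate from heparan chains, was at 3.00, 31.1 and 8.34 CPM in AT, BM and PB. *SULF2*, an enzyme of the same kind, was at 7.15, 20.3 and 18.8 CPM. The counts of this list thus rest largely on genes that do not make the chains, and for PB over AT on these alone. The 4 genes of this list with the highest levels differed less between sources. *B3GAT3*, which builds the linker shared by both kinds of chain, was at 42.5, 65.9 and 41.4 CPM, and the heparan sulfate polymerase *EXT2* at 40.1, 54.1 and 47.0 CPM. The chondroitin polymerising factor *CHPF* was at 47.2, 50.9 and 41.6 CPM, and the dermatan sulfate epimerase *DSE* at 38.3, 71.3 and 55.6 CPM.

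Other growth factors that bind heparin had 12 of 27 genes at 5 CPM or more. At least 2-fold from AT, 5 were higher and 2 lower in BM (7.9% and 2.03% of all genes), and 8 higher and 2 lower in PB (5.39% and 3.55%), with medians of 0.78 and 1.46. Between BM and PB 1 was at least 2-fold higher in BM and 3 in PB (5.44% and 1.84%), with a median of −0.21. *FGF7*, a fibroblast growth factor for epithelia, was at 438.4, 1450 and 1098 CPM in AT, BM and PB, and like *PTN* it was lower in the low BM cluster, at 439.3 against 1632 CPM. *TGFB3* was at 21.2, 49.5 and 114.9 CPM, *PDGFC* at 33.5, 59.3 and 84.4 CPM and *VEGFB* at 45.2, 76.3 and 39.9 CPM. Of the retinoic acid pathway, which is known to induce midkine, 6 of 19 genes were at 5 CPM or more. Of these 2 were at least 2-fold higher in BM than in AT (7.9% of all genes), 4 in PB than in AT (5.39%) and 2 in PB than in BM (1.84%), and none passed in the opposite directions, with medians of 0.69, 2.04 and −0.59 for BM over AT, PB over AT and BM over PB. *CRABP2* was at 114.7, 191.1 and 528.2 CPM, the retinoic acid receptor *RARG* at 24.3, 38.7 and 92.2 CPM, *RARA* at 29.3, 32.3 and 40.3 CPM, and the retinaldehyde dehydrogenase *ALDH1A3*, which makes retinoic acid, at 5.35, 77.3 and 75.7 CPM. With TMM factors the members at least 2-fold higher in BM than in AT were 2 for chain synthesis, 4 for the growth factors and 2 for the retinoic acid pathway, against 5.34% of all genes. The medians of these lists for BM over AT were then 0.37, 0.51 and 0.41. At least 2-fold higher in BM than in PB were then 1 for chain synthesis, 1 for the growth factors and 0 for the retinoic acid pathway, and at least 2-fold lower 0, 4 and 3, against 3.68% and 2.86% of all genes, with medians of 0.20, −0.37 and −0.81. *ALDH1A3* was at 4.70 CPM in the low BM cluster against 90.4 CPM in the remaining BM cells, whereas *CRABP2* was at 251.3 against 180.2 CPM and the whole list summed to 316.6 against 390.0 CPM.

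Markers of other cell types were set beside the difference between sources. The 7 measured osteoblast markers summed to 17.1 CPM in AT, 186.1 CPM in BM and 415.1 CPM in PB, and of the 5 at 5 CPM or more 4 were at least 2-fold higher in BM than in AT and 4 in PB than in AT, against 7.9% and 5.39% of all genes. The osteoblast transcription factor *SP7* was at 0.2001, 23.7 and 33.9 CPM and *ALPL* at 2.88, 96.0 and 325.6 CPM, whereas *IBSP*, a bone matrix sialoprotein, was at 0, 32.3 and 0.673 CPM. Between BM and PB *ALPL* had the largest difference, while *SP7*, *RUNX2* and *IFITM5* were also higher in PB and *IBSP* and *SPP1* were higher in BM. *IFITM5* was at 12.5, 13.4 and 35.1 CPM, so unlike *PTN* it was near-equal in AT and BM. The part of cells with these markers in the level of *PTN* was not tested. Smooth muscle or pericyte markers summed to 2506, 3131 and 2398 CPM, but their members differed. Of the 8 at 5 CPM or more, 2 were at least 2-fold higher and 2 lower in BM than in AT (7.9% and 2.03% of all genes), and 1 higher and 4 lower in PB than in AT (5.39% and 3.55%), among them the muscle filament gene *DES* at 203.9, 5.04 and 0.288 CPM and the smooth muscle actin *ACTG2* at 421.9, 184.0 and 52.4 CPM in AT, BM and PB. The sums were, for Schwann or glial markers, 100.5, 64.0 and 76.8 CPM, of which *ERBB3* made up nearly all in BM and PB while *SOX10* and *GFAP* had 0 UMIs, and for haematopoietic markers 7.25, 11.5 and 5.33 CPM, mostly *CD68*. Adipocyte markers summed to 3.75, 11.1 and 0.432 CPM, and endothelial markers to 0.7003, 0.273 and 0.264 CPM with *KDR* at 0 UMIs. Chondrocyte markers summed to 2.00, 13.0 and 7.02 CPM. Most of this was *SOX9*, at 1.58, 12.7 and 5.89 CPM, while *COL2A1* and *COL10A1* had 0 UMIs. *SOX9* was the only chondrocyte marker at 5 CPM or more. Like *PTN* it was at least 2-fold higher in BM and in PB than in AT, against 7.9% and 5.39% of all genes.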

How the data were processed

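Donor-matched MSCs were profiled with the 10x Genomics 3′ kit (version 2), and the authors mapped reads to EquCab3.0 with Cell Ranger and counted UMIs per gene with ESAT, which adds reads just past a gene's annotated end and drops exons that overlap on opposite strands. The values deposited by the authors are raw UMI counts, whole numbers for each gene in each barcode. Cells were kept at 2500 to 15000 UMIs with at most 3% mitochondrial UMIs. The authors' multiplet caller was not run, and doublets were treated only in an alternative without the 5% of cells of highest Scrublet score (Scanpy 1.11.5). Counts were summed to CPM, differences are of log2(CPM + 1), and thinning drew 2500 UMIs per cell without replacement. Clusters came from R 4.3.3 with sctransform 0.4.2 and Seurat 5.3.0 (3000 variable genes, resolution 0.6, mitochondrial share and cell cycle difference regressed), and edgeR 4.0.16 gave TMM factors only. Sources follow the sample titles. Intervals are from SciPy 1.17.1. The arithmetic was tested on simulated counts.

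No test was run, since each source is 1 library and cells are not replicates. Lists were counted at 2-fold among genes with a mean of at least 5 CPM. Named genes are *PTN* and *JAM2*, the partners at 5 CPM or more, the 4 highest genes of each other pathway list, and the 5 genes most and least like *PTN* in each source, of which 1 is not reported here. *SULF1*, *SULF2*, *CHSY1*, *HS6ST1*, the genes named in the low BM cluster and the single markers named from the cell type lists were chosen after their values were seen. The members and lists were chosen with earlier results of these data known. Alternatives were other UMI and mitochondrial limits, TMM, a pseudocount of 25 CPM, single-cell means, G1 cells, thinning, removal of shared barcodes or likely doublets, other resolutions and held-out UMIs.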

Additional observations from a re-analysis of the deposited data

Results flagged for a closer look

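*PTN* was also read in AT barcodes that lie outside the kept cells, and that enter only the alternative with all barcodes of at least 500 UMIs where they reach that limit. The AT table lists 6155 barcodes under the lower limit of 2500 UMIs, and 5279 of them are barcodes of kept PB cells. In these 5279 barcodes the AT library held 831 *PTN* UMIs, or 187.7 CPM (175.1 to 200.9), against 22.8 CPM in the kept AT cells and 208.7 CPM in the kept PB cells. The 870 AT barcodes under the limit that are kept cells of no other library were at 86.1 CPM (69.6 to 105.3). This group is not free of PB barcodes, since it also holds barcodes that PB lists outside its kept cells. In all, AT and PB had 5788 listed barcodes in common, against 106 for AT and BM and 57 for BM and PB. How this sharing arose was not tested. The 5327 kept AT cells whose barcodes are not kept elsewhere were at 22.8 CPM (21.3 to 24.3).

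The difference of *PTN* between G1 and G2M had opposite signs between sources. The log2 difference, G1 minus G2M, was 1.07 in BM, 0.30 in PB and −0.38 in AT. The difference between sources was not tested, since each source is 1 library. No group of samples was large enough for a single sample to be assessed as standing apart.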

How the results depend on the processing

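*PTN* stayed higher in BM and in PB than in AT under every alternative run. The log2 difference of BM over AT (3.08) moved beyond counting error to 2.25 with all barcodes of at least 500 UMIs, which adds AT barcodes of PB cells, to 2.80 with TMM factors, 2.24 with a pseudocount of 25 CPM, 3.19 with means of single-cell CPM, 3.34 in G1 cells, 3.23 after thinning and 3.30 without the low BM cluster. PB over AT (3.14) moved to 2.36 with at least 500 UMIs and 2.29 with a pseudocount of 25 CPM. BM over PB (−0.061) became −0.29 with TMM factors, 0.053 with single-cell means, 0.12 in G1 cells, 0.13 after thinning and 0.16 without the low BM cluster. For AT, BM and PB the shares of cells with *PTN* were 5.42%, 36.1% and 35.6% after thinning, 2.79%, 35.5% and 39.7% at a threshold of 2 UMIs, and 13.8%, 55.7% and 62.7% with at least 500 UMIs. With phases called after thinning, G1 over G2M became 0.93 in BM and 0.13 in PB. The split of BM cells by *JAM2* (0.51) became 1.30 with all UMIs, 0.17 in G1 cells, 0.12 without the low cluster and 0.37 in cells of 5000 to 10000 UMIs. Of 48 list members, 32 passed 1.5-fold between BM and AT in place of 17 at 2-fold, where 26.1% and 9.93% of all genes passed, and 22 between BM and PB in place of 12, where 20.5% and 7.28% of all genes passed. The cause of these moves was not tested. In all, 48 of the other values moved by less than the mean arm of the interval of counting error, or stayed within 1.5 times the count. Among them were all those for highest over lowest cluster and for the *JAM2* split in PB. For the AT clusters, held-out UMIs gave 28.8 over 17.2 CPM in place of 34.6 over 14.8 CPM. That ratio lies just below the main interval (1.68 to 3.26). The alternatives without the low BM cluster for the levels between sources, at 5000 to 10000 UMIs, without shared barcodes in the *JAM2* split, for that split in PB and with TMM factors for the lists were chosen after seeing the data.

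Alternatives for *MDK* and for both genes in 1 cell were not run, as *MDK* was not analysed here. No paired analysis was possible because each source has 1 library, with none to leave out. Intervals cover counting error only, so neither culture nor animal variation is measured. At 2500 UMIs per cell 1 *PTN* UMI is 400 CPM, so depth limits what is known of single cells.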
